A study of Mus musculus with 12 samples.

Results

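The 35 genes described here are expressed by astrocytes or mark a reactive astrocyte state, and they were followed across a bulk RNA-seq study of mouse cerebral cortex. They were chosen by symbol: every row of the deposited count table whose Ensembl identifier carries 1 of the 35 symbols in GENCODE M21 was taken, and all 35 were found among 54232 identifiers. All 35 also passed the low-count filter, which left 18016 genes to test. The mutant mice were homozygous for the Tbl1xr1 allele Y446C, a missense change in a subunit of the NCoR/SMRT corepressor complex, and were compared with wild-type mice. All 12 mice were of strain C57BL/6J and 12 weeks old, with 3 females and 3 males of each genotype, and each library came from the cortex of 1 mouse. The labels name no tissue-restricted driver for the allele. In a homogenate of whole cortex, fewer astrocytes and less RNA per astrocyte cannot be told apart.

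Astrocytes clear glutamate and potassium from around synapses, move water at their endfeet on blood vessels, and are joined to each other by gap junctions. When the brain is injured or inflamed they build up intermediate filaments of GFAP and vimentin and change many other genes, which is called reactivity. Metallothioneins, small cysteine-rich proteins that bind zinc and copper, are also abundant in astrocytes and respond to metals and glucocorticoids. TBL1XR1 works with corepressors that nuclear receptors and other transcription factors recruit.

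In 11 of the 12 libraries between 21238427 and 32669138 reads were counted in genes (median 24712815), and 5.23 to 10.4% of them were mitochondrial. Female mutant 3 stood apart, with 3748515 counts, 31.6% of them mitochondrial, and 17349 genes with at least 1 count against 24346 to 26012 in the others. Its level was the lowest of all 12 libraries for 17 of the 35 genes and the highest for 10. Genotype effects over both sexes are therefore given with all 12 libraries and with the 11 that remain without it. The 3 genes that define the cell type, Gfap, Aqp4 and Slc1a3, were well above the counting floor in every library. Levels are in CPM, counts per 1000000 counted reads after TMM scaling of the library totals. That floor, 3 counts, was worth 0.0861 to 0.137 CPM in the 11 libraries and 1.16 CPM in female mutant 3. On its plain total it was worth 0.800 in female mutant 3, whose TMM factor was 0.690, against 0.987 to 1.09 in the others.

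Gfap was the astrocyte gene that differed most between the genotypes, and most of the others lay close to their wild-type level. With all 12 libraries, none of the 35 genes passed the test over both sexes in edgeR (adjusted p under 0.05), and 1 gene in the whole transcriptome did (0.00555% of those tested). DESeq2 (0.132% of all genes), limma-voom and limma-voom with library weights (0.122%) also called none of the 35. At an unadjusted p under 0.05, 6 astrocyte genes were higher in mutants, Gfap, Vim, Fabp7, Aqp4, Gja1 and Clu, where 1.5% of all tested genes were higher at that p. None was lower, where 2.45% of all tested genes were. With 11 libraries the counts were 9 higher and 2 lower, against 3.21% and 4.26% of all genes. Slc1a3, Slc25a18 and Sox9 joined the higher genes, and Slc1a2 and Aldh1l1 were the lower ones. edgeR again called none of the 35 in these 11 libraries, and 0.0108% of all genes. DESeq2 called 1, Gfap, beside 0.263% of all genes, and limma-voom with library weights called none, beside 0.0217%.

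The median log2 fold change of the 35 genes, mutant over wild type, was 0.02 with all 12 libraries and 0.05 without female mutant 3. Over all tested genes it was -0.01 and 0.00. Of the 35 genes, 19 had a positive log2 fold change with all 12 libraries and 22 with 11. Over all tested genes, 8576 of 18016 and 9393 of 18461 did. The plot of fold changes by role shows that leaving out female mutant 3 narrowed the standard errors of most genes and drew several negative estimates to about 0, among them those of Mlc1, Slc7a10, Acsbg1, Mfge8 and Fgfr3.

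**Figure D1:**
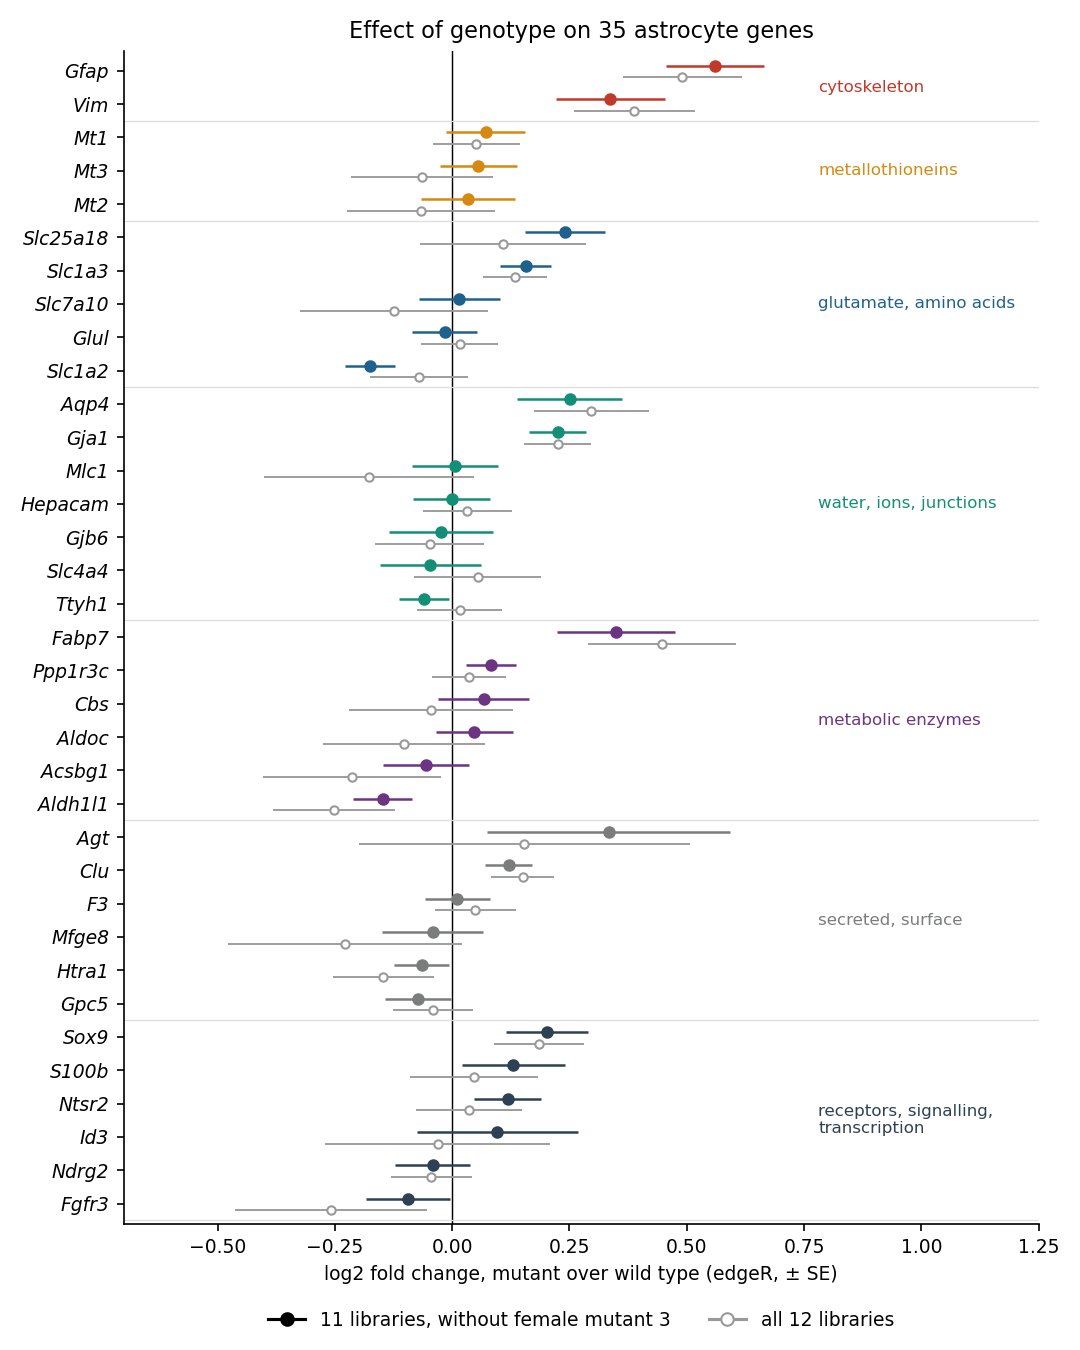
Log2 fold change of each of the 35 astrocyte genes, mutant over wild type, over both sexes, with its standard error (edgeR, horizontal axis), by role of the gene (vertical axis). Filled points are from the 11 libraries without female mutant 3 and open grey points from all 12; Gfap is farthest to the right among the filled points, at 0.56, and Slc1a2 farthest to the left, at -0.18.

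Among the cytoskeletal genes, Gfap, which encodes glial fibrillary acidic protein, the main intermediate filament of mature astrocytes, had a level of 206, 142 and 205 CPM in female mutants 1, 3 and 6, and 196, 261 and 205 CPM in male mutants 7, 10 and 27. The wild-type females 2, 4 and 5 had 154, 135 and 113 CPM, and the wild-type males 8, 12 and 13 had 156, 129 and 179 CPM. Every mutant except female mutant 3 lay above every wild-type mouse, and female mutant 3 lay inside the wild-type range. The means were 202.5 ± 37.7 CPM in mutants and 144.3 ± 23.5 CPM in wild-type mice (SD, n = 6 each). The log2 fold change was 0.49 ± 0.13 (SE; edgeR, adjusted p = 0.950). In the other 11 libraries it was 0.56 ± 0.10 (adjusted p = 0.174), a 1.47-fold difference. In those 11 libraries DESeq2 gave the same log2 fold change of 0.56 with an adjusted p of 5.82e-04, so the call rests on the tool and on leaving out that library. Over 24 alternatives the log2 fold change of Gfap lay between 0.42 and 0.56, and the adjusted p between 5.82e-04 and 0.9998.

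Gfap and Slc1a2 were the only 2 of the 35 genes whose 5 mutants and 6 wild-type mice did not overlap once female mutant 3 was left out, Gfap higher (0.483% of all genes were separated in that direction) and Slc1a2 lower (0.599%). With all 12 libraries no astrocyte gene was separated in either direction (0.144% of all genes higher, 0.294% lower). Gfap lies on chromosome 11 (GRCm38, 102887336 to 102900912, minus strand), and no exon of another annotated gene overlaps its exons. The 250 bases before its RefSeq start are printed here because it is the gene with the clearest difference, and because the affected protein acts with nuclear receptors. They hold 1 match to AGGTCA, the hexamer that many nuclear receptors bind, on the strand opposite to the one printed (capitals). Among the promoters of all genes in the RefSeq table of GRCm38.p6, 14% hold this hexamer on either strand, and 6 of the 32 astrocyte genes in the table do. The match describes the sequence and is not evidence of binding. No match to TTCNNNGAA, the STAT-binding palindrome that 7.02% of promoters hold, was in the window.
Gfap promoter, GRCm38.p6 chr11:102897201-102897450, minus strand: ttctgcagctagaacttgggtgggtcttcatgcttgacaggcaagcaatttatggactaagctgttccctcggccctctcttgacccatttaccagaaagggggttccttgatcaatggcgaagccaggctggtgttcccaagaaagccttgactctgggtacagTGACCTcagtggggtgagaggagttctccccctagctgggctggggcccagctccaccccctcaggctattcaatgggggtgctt

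Vim, which encodes vimentin, an intermediate filament of immature and reactive astrocytes and of vessel cells, had 24.6 CPM in the lowest, 27.6 CPM in the median and 39.8 CPM in the highest mutant. In wild-type mice the values were 21.5, 22.6 and 25.5 CPM. In 4 of 6 mutants, Vim was above the highest wild-type mouse, led by male mutant 10 at 39.8 CPM and female mutant 3 at 36.4 CPM. This gave a log2 fold change of 0.39 ± 0.13 (edgeR, adjusted p = 0.950), and 0.34 ± 0.12 without female mutant 3 (adjusted p = 0.520). It did not pass the test in either fit. The place of female mutant 3 for Vim depends on the scaling, since its TMM factor was 0.690, against 0.987 to 1.09 in the others.

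**Figure D2:**
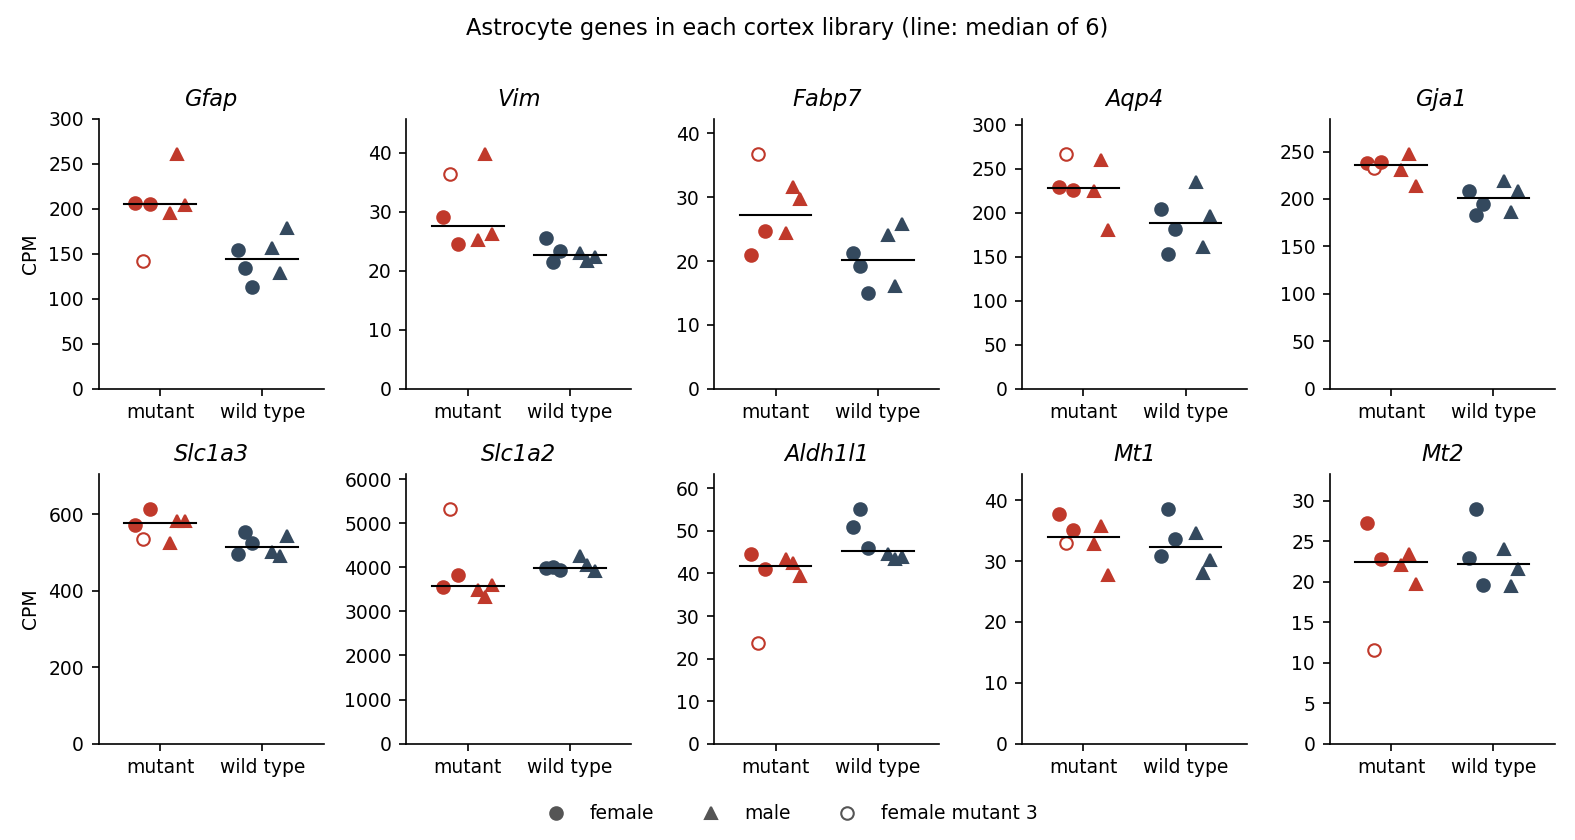
CPM of 10 astrocyte genes (vertical axis, from 0) in each mutant and wild-type library; circles are females, triangles males, the open circle is female mutant 3 and the line is the median of 6. Gfap is higher in every mutant but female mutant 3 than in every wild-type mouse, Slc1a2 is lower in every mutant but that one, Mt1 overlaps between the genotypes, and Mt2 does too apart from female mutant 3, which is below every wild-type mouse.

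The 3 metallothioneins, by contrast, were at about the same level in both genotypes. Mt1 averaged 33.7 ± 3.43 CPM in mutants and 32.6 ± 3.77 CPM in wild-type mice, a log2 fold change of 0.05 ± 0.09 (edgeR, adjusted p = 0.957). Mt2 had 11.6 CPM in the lowest, 22.4 CPM in the median and 27.2 CPM in the highest mutant, against 19.5, 22.2 and 29.0 CPM in wild-type mice. The lowest mutant was female mutant 3, and the other 5 lay inside the wild-type range. Mt3, the brain form of the family, averaged 53.1 ± 12.7 CPM in mutants and 55.9 ± 6.25 CPM in wild-type mice. The log2 fold changes of Mt2 and Mt3 with all 12 libraries were -0.07 ± 0.16 and -0.06 ± 0.15. In 11 libraries the log2 fold changes of Mt1, Mt2 and Mt3 were 0.07 ± 0.08, 0.03 ± 0.10 and 0.06 ± 0.08. The groups overlapped for all 3 genes, and none of the 3 had an unadjusted p under 0.05 in any of the genotype comparisons.

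Mt1 and Mt2 lie side by side on chromosome 8, and their promoters are shown because these genes varied together between mice. Metallothionein promoters are known for metal response elements, which the zinc sensor MTF1 binds. Capitals mark each match, on either strand, to the core of that element, searched as TGCACNC or TGCGCNC. Mt2 holds 3 cores in its 250 bases, where 1.26% of all promoters hold at least 3. Mt1 holds 1 core in its 250 bases, where 21.4% hold at least 1. Only the bases before the RefSeq start were searched, so cores elsewhere in either gene are not counted. The counts therefore do not compare the full promoters of the 2 genes. Exons of another annotated gene overlap Mt2 but not Mt1, and no source used here gives the strand setting of the counting, so the Mt2 count is the less certain.
Mt1 promoter, GRCm38.p6 chr8:94178839-94179088, plus strand: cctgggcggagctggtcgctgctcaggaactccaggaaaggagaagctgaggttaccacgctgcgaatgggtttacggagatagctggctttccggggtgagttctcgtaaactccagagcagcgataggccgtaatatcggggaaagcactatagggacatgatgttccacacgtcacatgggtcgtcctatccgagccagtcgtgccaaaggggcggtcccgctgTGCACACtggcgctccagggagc
Mt2 promoter, GRCm38.p6 chr8:94172368-94172617, plus strand: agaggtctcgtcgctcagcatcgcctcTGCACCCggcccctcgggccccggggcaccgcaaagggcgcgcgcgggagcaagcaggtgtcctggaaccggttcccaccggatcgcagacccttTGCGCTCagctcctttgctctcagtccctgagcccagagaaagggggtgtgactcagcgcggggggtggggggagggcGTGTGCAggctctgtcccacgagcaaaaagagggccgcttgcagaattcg

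The genes of glutamate and amino acid handling pointed in both directions. Slc1a2, which encodes GLT-1, the main glutamate transporter of the forebrain, had 3333 CPM in the lowest, 3576 CPM in the median and 5327 CPM in the highest mutant. In wild-type mice it had 3915, 3996 and 4248 CPM. The highest mutant was female mutant 3, and the other 5 mutants, at up to 3820 CPM, were all below the lowest wild-type mouse. The log2 fold change was -0.07 ± 0.11 with all 12 libraries (edgeR, adjusted p = 0.952). With that library left out it was -0.18 ± 0.05 (adjusted p = 0.480), which did not pass the test. When libraries were scaled by their totals alone, all 12 together gave -0.18 as well (edgeR, adjusted p = 0.942). The TMM factor of female mutant 3 was 0.690, against 0.987 to 1.09 in the others. Its place as the highest mutant therefore depends on the scaling. Exons of another annotated gene overlap Slc1a2, so its count is uncertain to that extent.

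Slc1a3, which encodes GLAST, the other main glial glutamate transporter, had 525.5, 578.0 and 614.7 CPM in the lowest, median and highest mutant, and 491.3, 513.6 and 553.2 CPM in wild-type mice. Of 6 mutants, 4 lay above the highest wild-type mouse. Its log2 fold change was 0.13 ± 0.07 (edgeR, adjusted p = 0.950), and 0.16 ± 0.05 without female mutant 3 (adjusted p = 0.521). The 2 transporters therefore had estimates of opposite sign, and neither passed the test.

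Slc25a18, a mitochondrial glutamate carrier, had 12.4, 34.9 and 39.5 CPM in the lowest, median and highest mutant and 25.5, 28.8 and 34.6 CPM in wild-type mice. The lowest mutant was again female mutant 3, while the 3 male mutants were above every wild-type mouse. Its log2 fold change was 0.11 ± 0.18 with all 12 libraries and 0.24 ± 0.08 without that library (edgeR, adjusted p = 0.536). Glul, glutamine synthetase, which turns glutamate into glutamine, averaged 1383 ± 128 CPM in mutants and 1366 ± 97.9 CPM in wild-type mice, a log2 fold change of 0.02 ± 0.08 (-0.02 ± 0.07 without female mutant 3). Slc7a10, a transporter of serine and other small neutral amino acids, had a log2 fold change of -0.12 ± 0.20 with all 12 libraries and 0.02 ± 0.09 without female mutant 3; that library alone was at 6.20 CPM and the other mutants at 19.1 CPM or more. Exons of other genes overlap Slc25a18, Glul and Slc7a10 too.

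Of the 7 genes for water, ions and junctions, Aqp4 and Gja1 had higher estimates, and the other 5 were near 0 once female mutant 3 was left out. Gja1 encodes connexin 43, which forms most astrocyte gap junctions. It had 213.9, 235.5 and 247.5 CPM in the lowest, median and highest mutant, and 183.1, 201.2 and 218.8 CPM in wild-type mice. In 5 of 6 mutants, female mutant 3 included, Gja1 was above every wild-type mouse, and the sixth, male mutant 27, was below the highest. The place of female mutant 3 depends on the scaling, since its TMM factor was 0.690, against 0.987 to 1.09 in the others. The log2 fold change was 0.22 ± 0.07 with all 12 libraries (edgeR, adjusted p = 0.950) and 0.22 ± 0.06 with 11 (adjusted p = 0.441). Gja1 was thus 1.17-fold higher in both fits without passing the test.

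Aqp4, the water channel of astrocyte endfeet, had 180.6, 227.7 and 266.8 CPM in the lowest, median and highest mutant, and 152.6, 188.5 and 234.6 CPM in wild-type mice. The groups overlapped, with 2 mutants above the highest wild-type mouse. Its log2 fold change was 0.30 ± 0.12 (edgeR, adjusted p = 0.950), and 0.25 ± 0.11 without female mutant 3 (adjusted p = 0.652). Among the other 5, without female mutant 3, the log2 fold changes ran between -0.06 for Ttyh1, a chloride channel family member, and 0.01 for Mlc1, a membrane protein of endfeet. Hepacam, the adhesion protein that partners Mlc1, Gjb6, which encodes connexin 30, and Slc4a4, a sodium bicarbonate cotransporter, lay between those values, and between -0.05 and 0.05 with all 12 libraries, where Ttyh1 was at 0.02. Mlc1 was -0.18 ± 0.22 with all 12 libraries, where female mutant 3 was at 25.6 CPM and the other mutants at 77.1 CPM or more.

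Among the metabolic genes, Fabp7, a fatty acid binding protein of radial glia and astrocytes, had 21.0, 27.2 and 36.8 CPM in the lowest, median and highest mutant. In wild-type mice it had 15, 20.2 and 25.8 CPM. In 3 of 6 mutants it was above the highest wild-type mouse, and female mutant 3 was the highest of all. Its estimate was a log2 fold change of 0.45 ± 0.16 with all 12 libraries (edgeR, adjusted p = 0.950) and 0.35 ± 0.13 with 11 (adjusted p = 0.549). It was the second largest estimate of the 35 genes in both fits, and it did not pass the test. That female mutant 3 was the highest for Fabp7 depends on the scaling, since its TMM factor was 0.690.

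Aldh1l1, a folate enzyme widely used as an astrocyte marker, was lower. It had 23.6, 41.8 and 44.7 CPM in the lowest, median and highest mutant, and 43.5, 45.2 and 55.2 CPM in wild-type mice. Of 6 mutants, 5 were below the lowest wild-type mouse, and the margin was small outside female mutant 3. The log2 fold change was -0.25 ± 0.13 with all 12 libraries (edgeR, adjusted p = 0.950) and -0.15 ± 0.06 with 11 (adjusted p = 0.619). Exons of other genes overlap Aldh1l1. Aldoc (aldolase C, of glycolysis), Acsbg1 (a long-chain acyl-CoA synthetase), Ppp1r3c (a regulator of glycogen synthesis) and Cbs (cystathionine beta-synthase) had log2 fold changes between -0.06 and 0.08 in the 11 libraries, and none had an unadjusted p under 0.05 there. Including female mutant 3, Acsbg1 was at -0.21 ± 0.19, Aldoc at -0.10 ± 0.17, Cbs at -0.05 ± 0.17 and Ppp1r3c at 0.04 ± 0.08.

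Of the 6 secreted and surface proteins, Clu was the only one with an unadjusted p under 0.05 over both sexes. Clu encodes clusterin, a secreted chaperone and lipid carrier, and it had 512.1, 545.6 and 625.3 CPM in the lowest, median and highest mutant, and 470.9, 497.0 and 523.2 CPM in wild-type mice. In 5 of 6 mutants Clu was above every wild-type mouse. Its log2 fold change was 0.15 ± 0.07 (edgeR, adjusted p = 0.950), and 0.12 ± 0.05 without female mutant 3 (adjusted p = 0.601). Agt, angiotensinogen, varied most between wild-type mice of all 35 genes, between 14 and 33 CPM, and its log2 fold change was 0.15 ± 0.35 with all 12 libraries and 0.33 ± 0.26 without female mutant 3, with no unadjusted p under 0.05. Mfge8, an opsonin for apoptotic cells, Htra1, a secreted serine protease, Gpc5, a heparan sulfate proteoglycan, and F3, tissue factor, lay between -0.07 and 0.01 without female mutant 3. Including that library, Mfge8 was at -0.23 ± 0.25, Htra1 at -0.15 ± 0.11, Gpc5 at -0.04 ± 0.09 and F3 at 0.05 ± 0.09.

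Among receptors, signalling proteins and transcription factors, Sox9, a transcription factor of astrocyte identity, had 31.9, 35.2 and 40.0 CPM in the lowest, median and highest mutant. In wild-type mice it had 27.1, 30.8 and 38.5 CPM. The groups overlapped because of male wild-type 8, at 38.5 CPM. The log2 fold change was 0.18 ± 0.10 (edgeR, adjusted p = 0.950), and 0.20 ± 0.09 with 11 libraries (adjusted p = 0.629). Without female mutant 3, the calcium-binding S100b was at 0.13 ± 0.11, the neurotensin receptor Ntsr2 at 0.12 ± 0.07, the transcriptional inhibitor Id3 at 0.10 ± 0.17, the differentiation gene Ndrg2 at -0.04 ± 0.08 and the growth factor receptor Fgfr3 at -0.09 ± 0.09. In the fit of all 12, Fgfr3 was at -0.26 ± 0.20, S100b at 0.05, Ntsr2 at 0.04, Id3 at -0.03 and Ndrg2 at -0.04. None of these 5 had an unadjusted p under 0.05 over both sexes.

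Gfap, Vim and the 3 metallothioneins are the members often counted as reactive, and they did not move as a group. With all 12 libraries their median log2 fold change was 0.05 and that of the other 30 genes 0.02. With 11 libraries the medians were 0.07 and 0.01, and all 5 were positive beside 17 of 30. The filament pair had a median of 0.44 with all 12 libraries and 0.45 with 11, against -0.06 and 0.06 for the metallothioneins, so the value of the group depends on which genes are counted in it.

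Sex was the other factor of the design. In females, none of the 35 genes passed edgeR (0% of all genes did), and neither did any in males (0%). In females, 5 genes were higher at an unadjusted p under 0.05 (7.98% of all genes) and 3 lower (3.83%). In males, 2 were higher (1.03%), Gfap and Vim, and none lower (1.75%). Without female mutant 3 the counts were 5 (4.94%) and 3 (4.47%) in females, with 2 mutants, and 4 (3.92%) and 1 (4.51%) in males. In that fit edgeR called none of the 35 in females (0% of all genes) or in males (0.00542%). None of the 35 was called within a sex by DESeq2 or by limma-voom, with or without library weights.

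Gfap was higher in mutants of both sexes: its log2 fold change was 0.62 ± 0.16 in females without female mutant 3 (edgeR, adjusted p = 0.516) and 0.51 ± 0.14 in males (adjusted p = 0.536). The difference between these effects, 0.10 ± 0.21, was smaller than its error. In the fit of all 12, Gfap was at 0.47 ± 0.18 in females and 0.51 ± 0.18 in males. Gja1 was at 0.29 ± 0.09 in females and 0.17 ± 0.08 in males without female mutant 3, a difference of 0.11 ± 0.12 (edgeR interaction, adjusted p = 0.744). Slc1a3 was at 0.18 ± 0.08 in females and 0.14 ± 0.07 in males, a difference of 0.04 ± 0.11 (adjusted p = 0.917). Vim was at 0.19 ± 0.17 in females and 0.45 ± 0.15 in males, and Slc1a2 at -0.11 ± 0.08 and -0.23 ± 0.07. The difference between the sexes was -0.26 ± 0.23 for Vim (edgeR interaction, adjusted p = 0.680) and 0.13 ± 0.10 for Slc1a2 (adjusted p = 0.652). These values rest on leaving out female mutant 3: with all 12 libraries the effect in females was 0.32 ± 0.19 for Vim and turned positive for Slc1a2, at 0.09 ± 0.14. The interaction was then -0.13 ± 0.26 for Vim and 0.33 ± 0.19 for Slc1a2.

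In females with all 12 libraries, Aqp4, Gja1, Clu and Sox9 were higher in each of the 3 mutants than in each of the 3 wild-type mice (10.1% of all genes were so separated), and Mlc1, Aldh1l1, Acsbg1 and Fgfr3 lower (12.4%). In males, Gfap, Vim, Slc25a18 and Clu were separated upward (6.88%), and Slc1a2 and Aldh1l1 downward (6.62%). Clu and Aldh1l1 were listed in both sexes, and the share of all genes separated in the same direction in both was not counted. The upward separations in females include female mutant 3, whose high values depend on the scaling. Without female mutant 3, 6 genes were separated upward in females (14.4%) and 5 downward (15.7%), Gfap and Slc1a2 now among them.

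The effects of genotype in females and males pointed in opposite directions for some genes, and none of these differences passed the test (edgeR interaction, 0% of all genes; DESeq2 and both forms of limma-voom also called none of the 35). With all 12 libraries none of the 35 had an unadjusted interaction p under 0.05 (7.67% of all genes). In the 11 libraries, 3 had one (10.6%). The effect in females minus that in males was -0.40 ± 0.15 for Mlc1, -0.37 ± 0.16 for Acsbg1 and -0.36 ± 0.15 for Fgfr3 (adjusted p = 0.459 each). Mlc1 was at -0.22 in females and 0.18 in males, Acsbg1 at -0.26 and 0.11, and Fgfr3 at -0.29 and 0.06. Acsbg1 had 95.6, 36.4 and 76.3 CPM in female mutants 1, 3 and 6, against 104.7, 105.9 and 98.2 CPM in wild-type females. It had 99.6, 111.7 and 84.3 CPM in male mutants 7, 10 and 27, against 90.9, 89.0 and 94.9 CPM in wild-type males. Every female mutant was below every wild-type female for Acsbg1, and the males overlapped. Fgfr3 had 60.2, 20.9 and 57.2 CPM in the female mutants, against 79.9, 67.6 and 68.4 CPM in wild-type females. In males it had 75.3, 77.7 and 72.2 CPM in mutants, against 60.6, 76.2 and 78.7 CPM in wild-type mice, and again only the females were separated. The differences with all 12 libraries were -0.72 ± 0.40 for Mlc1, -0.64 ± 0.34 for Acsbg1 and -0.65 ± 0.37 for Fgfr3, and the effects in females -0.54, -0.53 and -0.58. Without female mutant 3 the estimates of this difference were negative for all 6 metabolic genes, with a median of -0.15. With all 12 libraries that of Fabp7 was positive, at 0.13 ± 0.32, and the other 5 were negative. Over all tested genes, 9055 of 18461 estimates were positive without female mutant 3, and 8610 of 18016 with all 12 libraries. Whether the metabolic genes differ from all genes in this was not tested.

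**Figure D3:**
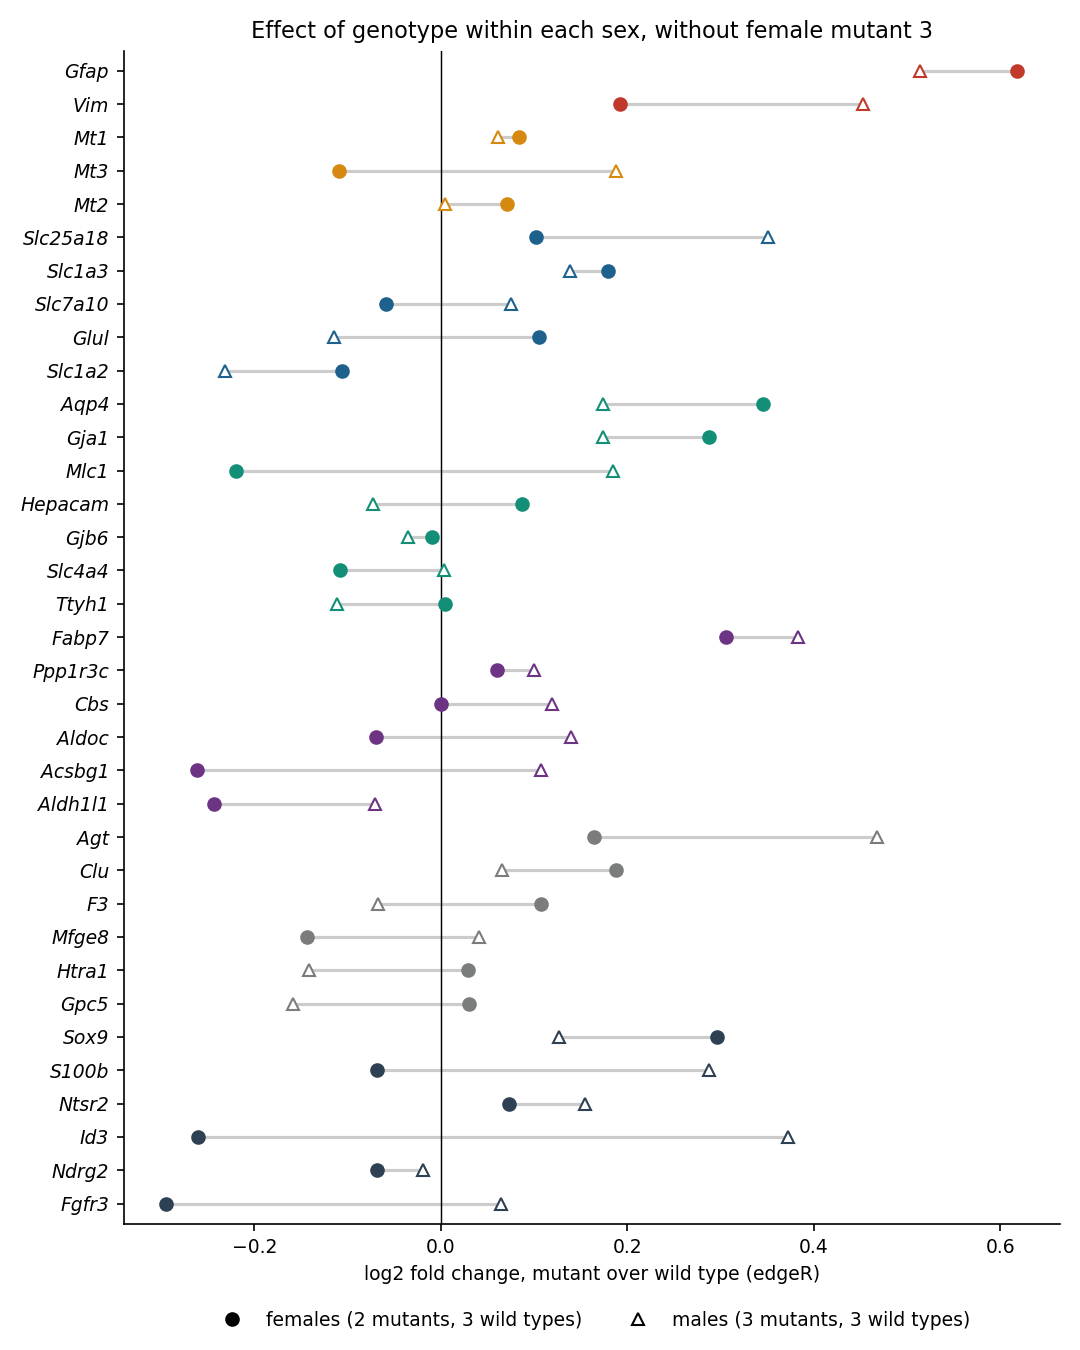
Log2 fold change of each astrocyte gene, mutant over wild type, in females (filled circles, 2 mutants and 3 wild-type mice) and males (open triangles, 3 of each), without female mutant 3 (edgeR; grey lines join the sexes). The Gfap symbols lie close together, at 0.62 and 0.51, while those of Mlc1 lie on either side of 0, at -0.22 and 0.18.

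Between males and females over both genotypes, none of the 35 genes passed edgeR (0.0389% of all genes did), DESeq2 or limma-voom, and none had an unadjusted p under 0.05 (1.77%). With 11 libraries, Fabp7 and Slc25a18 had one (2.67% of all genes; 0.0433% passed the test). Their log2 fold changes, male over female, were 0.28 ± 0.13 and 0.19 ± 0.09 (adjusted p = 0.9997 each), and 0.18 ± 0.16 and 0.32 ± 0.18 with all 12 libraries.

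The abundance of the astrocyte genes spanned a wide range. Per kilobase of merged exon, Glul had the highest level, 416 CPM per kb in mutants and 411 in wild-type mice, followed by Slc1a2 at 293 in mutants and 306 in wild-type mice. Ndrg2 had 153 CPM per kb in mutants and 158 in wild-type mice, and Clu 161 in mutants and 145 in wild-type mice. Gfap ranked 12 of 35 in wild-type mice, at 48.0 CPM per kb in mutants and 34.2 ± 5.58 (SD, n = 6) in wild-type mice, beside Htra1 at 34.9 and Mlc1 at 31.9 in wild-type mice, from which it did not differ beyond that spread. Vim and Cbs were the lowest, with 6.36 and 2.20 in mutants and 4.82 and 2.33 in wild-type mice. In wild-type mice the coefficient of variation over 6 mice, on the CPM scale, was between 3.03% for Slc1a2 and 31.0% for Agt, with a median of 9.42%.

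**Figure D4:**
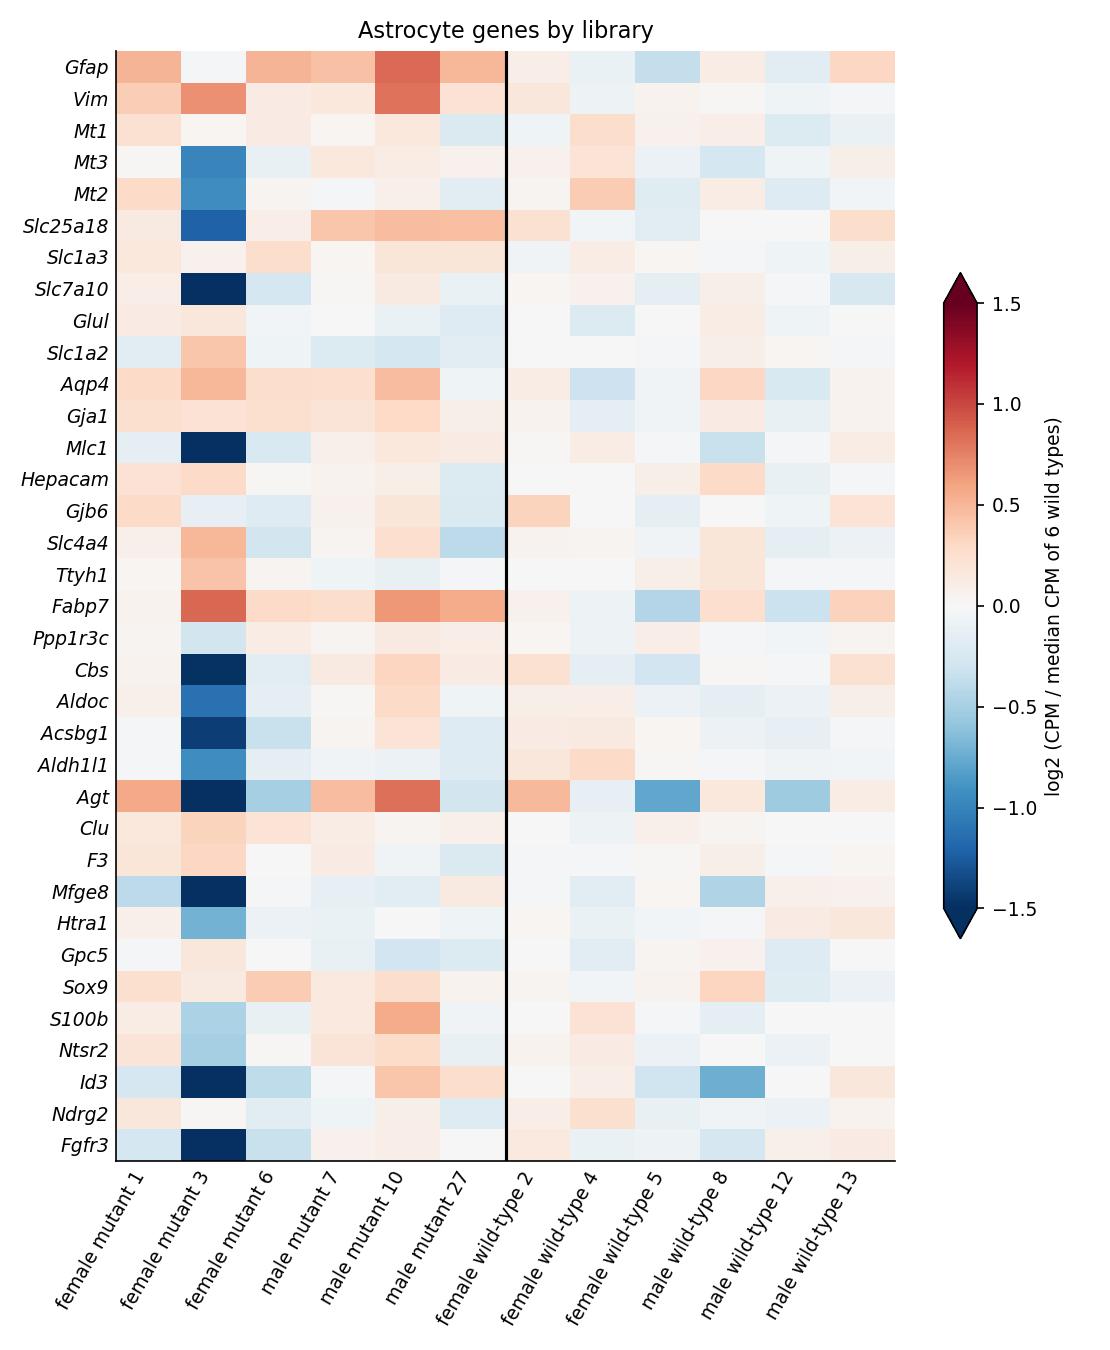
Log2 ratio of each gene's CPM to the median of the 6 wild-type mice (color, limited to -1.5 and 1.5), with the 6 mutants left of the black line and the 6 wild-type mice right of it, and genes in rows by role. The column of female mutant 3 differs from all others in both directions, and the Gfap row is above 0 in the other 5 mutants.

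Pairs of members were compared across the 11 libraries other than female mutant 3, in a family of 6 relations with p-values from 100000 permutations. Mt1 and Mt2 varied together (Pearson r = 0.823, p = 0.00184, adjusted p = 0.00930; Spearman rho = 0.818, p = 0.00346, adjusted p = 0.0208). Without the 2 libraries farthest from the median of Mt1, r was 0.734. With the 4 group means removed, where p came from the 432 permutations within groups, it was 0.779 (permutation p = 0.0231, adjusted p = 0.139), which did not pass after adjustment. With all 12 libraries it was 0.448 (adjusted p = 0.266), and female mutant 3 was low for Mt2 and not for Mt1.

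Gfap varied with Vim (r = 0.761, p = 0.00310, adjusted p = 0.00930; rho = 0.745, p = 0.0112, adjusted p = 0.0337) and with Aqp4 (r = 0.725, p = 0.0121, adjusted p = 0.0242; rho = 0.682, p = 0.0254, adjusted p = 0.0382) across the same permutations. Without the 2 farthest libraries r was 0.750 and 0.648. With group means removed r was 0.616 and 0.556, and with all 12 libraries 0.512 and 0.535, and neither relation then passed the permutation test (adjusted p between 0.257 and 0.384). Male mutant 10 was the highest library for both Gfap and Vim.

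Slc1a2 and Slc1a3 ran in opposite directions (r = -0.593, p = 0.0566, adjusted p = 0.0850; rho = -0.682, p = 0.0245, adjusted p = 0.0382, permutation tests), passing by rank only. Without the 2 farthest libraries r was -0.728, and with group means removed it was -0.06 (adjusted p = 0.910), and 0.434 when the 2 farthest libraries were also left out there, so the relation did not hold within the groups and its value there rests on those libraries. The relation of Gfap to the mean of 12 oligodendrocyte genes did not pass (r = 0.101, p = 0.767, adjusted p = 0.767; rho = 0.264, p = 0.433, adjusted p = 0.520; r = -0.11 without the 2 farthest). That of Mt2 to the mean of 13 glucocorticoid-induced genes did not pass either (r = 0.144, p = 0.671, adjusted p = 0.767; rho = -0.05, p = 0.901, adjusted p = 0.901; r = -0.24 without the 2 farthest, permutation tests).

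**Figure D5:**
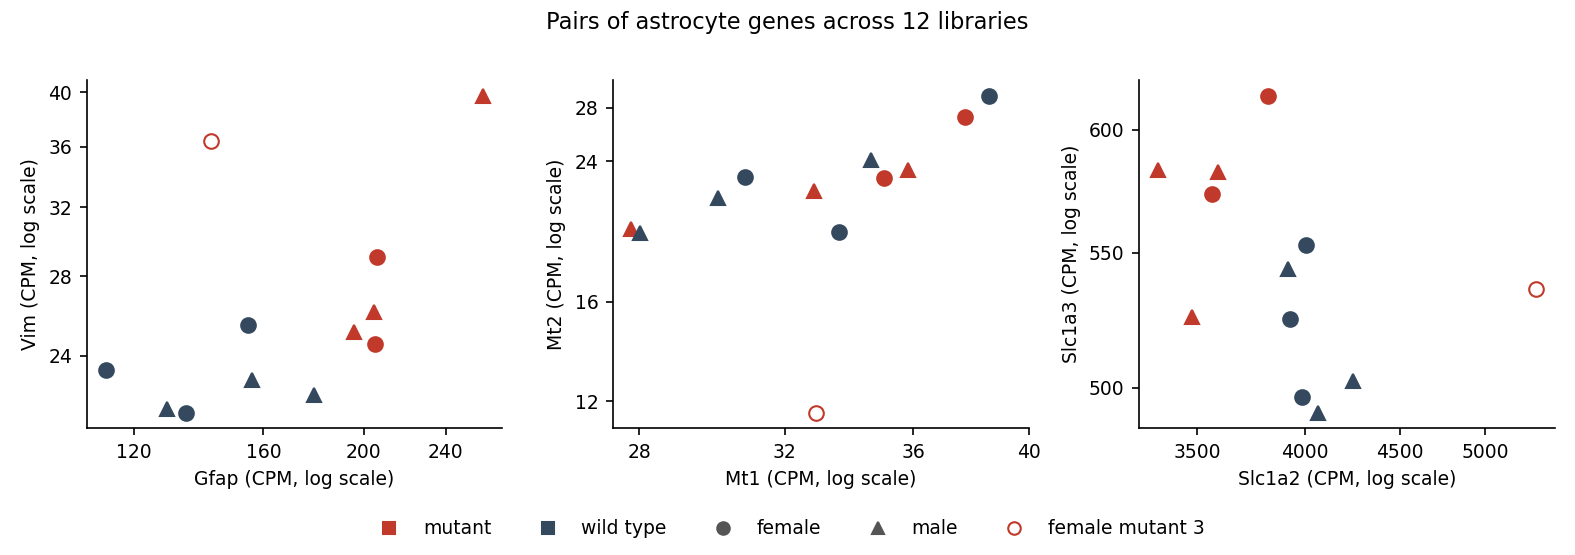
CPM of 3 pairs of astrocyte genes in each library (both axes logarithmic); red is mutant, blue wild type, circles are females, triangles males, and the open circle is female mutant 3. In the 11 libraries without female mutant 3, Mt2 follows Mt1 (r = 0.823) and Vim follows Gfap (r = 0.761). There Slc1a3 is high where Slc1a2 is low (r = -0.593), but not with group means removed (r = -0.06). With all 12 libraries r is 0.448, 0.512 and -0.39 for the 3 pairs, and female mutant 3 lies below the others for Mt2.

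Other genes of the astrocyte programme were read from lists of markers. Over both sexes, edgeR and limma-voom with library weights called none of the genes of the lists below, with or without female mutant 3, and limma-voom and DESeq2 called none with all 12 libraries. Without female mutant 3 DESeq2 called 2, the astrocyte gene Chrdl1 at a log2 fold change of -0.72 ± 0.17 (adjusted p = 0.0112) and the neuronal gene Gad1, a GABA-synthesising enzyme, at -0.26 (adjusted p = 0.0412). Of 30 further astrocyte genes, 15 had a positive and 15 a negative log2 fold change with all 12 libraries, with a median of 0.00, and 19 and 11 with 11 libraries, with a median of 0.05. None had an unadjusted p under 0.05 upward with all 12 libraries. Chrdl1, a secreted BMP antagonist, had one downward, at -0.57 (-0.72 without female mutant 3). Of 9 tested genes shared by different reactive states, 6 were positive, with a median of 0.12 (0.17 without female mutant 3). Serpina3n, a protease inhibitor typical of reactive astrocytes, was at 0.14 (0.25), and Lcn2, lipocalin 2, was at -2.37 (-2.40) on low counts. Of 12 genes of the neurotoxic type of reactivity, 8 were positive with a median of 0.23, and 11 with a median of 0.22 without female mutant 3. Of all tested genes, 8576 of 18016 were positive, and 9393 of 18461 without that library. The summed level of the 12 genes was 70.9 to 129.4 CPM in mutants and 88.4 to 103.8 CPM in wild-type mice, which overlap. In that list Amigo2, an adhesion protein, at 0.37, was the only gene with an unadjusted p under 0.05. Of 9 tested genes of the trophic type, 7 were positive with a median of 0.07 and none had such a p.

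Of 8 genes of pial and subventricular astrocytes and neural stem cells, 4 had an unadjusted p under 0.05 and a positive log2 fold change with all 12 libraries (1.5% of all tested genes did). These were the transcription factors Sox2 (0.25) and Sox11 (0.34), Thbs4, a secreted thrombospondin of subventricular astrocytes (0.40), and Nes, which encodes the filament nestin (0.31). With 11 libraries there were 5, with Hopx, a homeodomain protein of neural stem cells, at 0.49 (3.21% of all genes). Myoc, also on this list, was not among them in either fit. The summed level of the 8 genes was 176.6 to 196.4 CPM in mutants and 141.4 to 184.6 CPM in wild-type mice, which overlap, and none of the 8 was at 0 in all libraries. Dcx, of migrating neuroblasts, and Dlx2, a transcription factor of their precursors, were at -0.14 and -0.21.

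Genes of other cells that a cortical sample can hold were read in the same fits. All 12 striatal neuron genes had a negative log2 fold change. Their median was -0.77, and 7 had an unadjusted p under 0.05 (2.45% of all genes were lower at that p). Without female mutant 3 the median was -0.86, and 10 had one (4.26%). Their summed level was 467.0 to 1556 CPM in mutants and 827.1 to 2712 CPM in wild-type mice, and none was at 0 in all libraries. The part of this difference in the Gfap and Slc1a2 results was not tested. The 12 oligodendrocyte genes had a median of -0.02 (0.05 without female mutant 3), with a summed level of 5209 to 8351 CPM in mutants and 5844 to 7045 CPM in wild-type mice. The 12 microglial genes had a median of -0.14 (-0.06), the 10 endothelial genes -0.01 (0.03), the 8 mural genes 0.02 (-0.03), the 10 meningeal fibroblast genes 0.15 (0.12) and the 5 blood genes 0.15 (0.27). The 9 ependymal and choroid plexus genes had -0.11 (-0.07), the 8 oligodendrocyte precursor genes -0.04 (0.03) and the 12 neuronal genes -0.05 (-0.09). Female mutant 3 stood apart in the last 2 lists. Its neuronal genes summed to 16145 CPM, against 7078 to 9539 CPM in the other mutants and 7990 to 9481 CPM in wild-type mice. Its precursor genes summed to 180.4 CPM, against 272.4 to 309.1 CPM and 276.4 to 300.8 CPM.

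Metallothioneins respond to glucocorticoids and metals, and other genes of those responses were read beside them. The 13 glucocorticoid-induced genes had a median log2 fold change of -0.03 (0.02 without female mutant 3), and the 8 genes of zinc and metal response 0.02 (0.04). In the second list Slc7a11, the cystine-glutamate exchanger, at 0.46 (0.39), was the only gene with an unadjusted p under 0.05, and Slc30a1, a zinc exporter known to be induced with the metallothioneins, was at 0.00 (-0.10).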

How the data were processed

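Total RNA from the cortex of 12 mice, 3 of each sex and genotype, was made into mRNA libraries and sequenced in pairs of 150 bases, per the labels' protocols. The values are raw read counts per gene as the authors deposited them, in 1 table of 12 columns. Per the submitters' processing notes, the tools were Trimmomatic 0.36, HISAT2 2.1.0, HTSeq 0.11 and Cufflinks, and the build GRCm38.p6; no source used here gives the annotation release or the strand setting. Of 54232 identifiers, 54165 matched GENCODE M21, and the 67 left over took 0.0297% of the counts at most. Counts that overlap an exon of another gene are uncertain where this is said. Depth per library is given with the results; more counts narrow the counting error only, and the spread between mice sets the tests.

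Counts were tested with edgeR 4.0.16 (quasi-likelihood, TMM scaling, filterByExpr over 4 groups, Benjamini-Hochberg over all tested genes, called at 0.05) in R 4.3.3, with a sex term for both sexes together, and with a mean for each of the 4 groups for single sexes and the interaction. Levels are CPM on TMM-scaled totals; log2 CPM used a prior count of 2. Relations used permutation tests in SciPy 1.17.1, 2-sided. Alternatives were DESeq2 1.42.0, limma-voom (limma 3.58.1) with and without library weights, RLE scaling, library totals, no filter, 1 CPM in 6 libraries, other models and leaving out each library; library totals without female mutant 3 was added after seeing the data. The edgeR fit was also run on counts simulated with the dispersions of these data, and the outcome of that run is not given here. All 35 genes are named; ranges over samples are given for those with an unadjusted p under 0.05 in a genotype comparison and for others where a library decides the value. The genes and lists were chosen with earlier results of these data known. Nothing beyond the separate mice is said of cultures or batches, and no batch is labelled. Promoters are from RefSeq (GRCm38.p6), 250 bases before each start, and 32 of the 35 genes matched.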

Additional observations from a re-analysis of the deposited data

Results flagged for a closer look

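In 70 groups of 6 libraries (35 genes in mutants and in wild-type mice), 1 library lay far from the other 5 in 11. By chance about 1 in 20 separate groups would show this, but these groups share the same libraries and are not separate trials. Of these 11, 10 were female mutant 3. It was low for Mt3 (28.3 CPM, where the other mutants had 51.9 to 62.4), Slc7a10 (6.20 CPM, others 19.1 to 25.2), Slc25a18 (12.4 CPM, others 30.9 to 39.5), Mlc1 (25.6 CPM, others 77.1 to 100.7), Aldh1l1 (23.6 CPM, others 39.4 to 44.7), Ppp1r3c (32.5 CPM, others 40.3 to 43.2), Htra1 (60.4 CPM, others 91.9 to 103.4) and Fgfr3 (20.9 CPM, others 57.2 to 77.7). It was high for Slc1a2 (5327 CPM, others 3333 to 3820) and Ttyh1 (449.9 CPM, others 309.8 to 343.3). The remaining one was Mlc1 in male wild-type 8, at 71.8 CPM where the other wild-type mice had 88.9 to 97.5. The library of female mutant 3 had 3748515 counts, 31.6% mitochondrial reads and a TMM factor of 0.690, against 0.987 to 1.09 in the others. A smaller factor gives larger CPM values, so its high values depend on the scaling. The part of the depth and of the mitochondrial reads in its values was not tested.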

How the results depend on the processing

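No paired analysis was possible because no animal number is shared between the groups. The number of the 35 astrocyte genes called over both sexes was 0 under every alternative except DESeq2 without female mutant 3, where it was 1, Gfap, at a log2 fold change of 0.56. It was 0 under every alternative within each sex, for the interaction and for sex, and 0 whichever single library was left out of edgeR. Of the 35 genes, 17 kept the direction of their genotype effect under every alternative, Gfap, Vim, Gja1, Aqp4, Slc1a2 and Aldh1l1 among them. The other 18 had a log2 fold change of at most 0.18 in size with all 12 libraries and changed sign under at least 1 alternative; 11 did so without female mutant 3. Leaving out each library turned the sign of 15 of them, with values that ran, lowest to highest, Agt -0.092 to 0.35, Aldoc -0.17 to 0.047, Cbs -0.12 to 0.067, Gjb6 -0.12 to 0.020, Glul -0.027 to 0.052, Hepacam -0.0013 to 0.10, Id3 -0.18 to 0.096, Mlc1 -0.27 to 0.0061, Mt2 -0.15 to 0.034, Mt3 -0.13 to 0.056, Ntsr2 -0.012 to 0.12, S100b -0.062 to 0.13, Slc4a4 -0.046 to 0.13, Slc7a10 -0.23 to 0.015 and Ttyh1 -0.059 to 0.060. F3, Mt1 and Ppp1r3c stayed positive there, at 0.011 to 0.10, 0.015 to 0.096 and 0.0094 to 0.082. With DESeq2 without female mutant 3 the values with changed sign were Aldoc 0.050, Cbs 0.070, Glul -0.013, Id3 0.098, Mlc1 0.0090, Mt2 0.037, Mt3 0.059, Slc4a4 -0.044, Slc7a10 0.018 and Ttyh1 -0.056. With library totals the values with changed sign were F3 -0.038, Glul -0.078, Hepacam -0.056, Mt1 -0.026, Ntsr2 -0.035, Ppp1r3c -0.040, S100b -0.026, Slc4a4 -0.055 and Ttyh1 -0.087. With library totals without female mutant 3 the values with changed sign were Aldoc 0.039, Cbs 0.058, Glul -0.023, Hepacam -0.0067, Id3 0.085, Mt2 0.025, Mt3 0.046, Slc4a4 -0.051, Slc7a10 0.0096 and Ttyh1 -0.067. With limma-voom the values with changed sign were Id3 0.038 and Ttyh1 -0.0026. With limma-voom and library weights the values with changed sign were Aldoc 0.018, Cbs 0.055, Gjb6 0.0096, Mt2 0.11, Mt3 0.046, Slc7a10 0.072 and Ttyh1 -0.028. With library weights without female mutant 3 the values with changed sign were Aldoc 0.030, Cbs 0.057, Gjb6 0.0067, Mt2 0.11, Mt3 0.051, Slc7a10 0.080 and Ttyh1 -0.035. With no filter the values with changed sign were Ttyh1 -0.00065. Without sex as a term the values with changed sign were Id3 0.019. Library totals also turned Slc1a3 in females to -0.075; that scaling moves the median of all genes in females to -0.21, against -0.03. The causes were not tested.

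Over all genes the calls over both sexes, 1 in edgeR, were 25 with DESeq2 (50 without female mutant 3), 22 with library weights (4 without it), 0 with library totals (2 without it) and 0 to 2 leaving out each library. In females, 0 in edgeR, they were 6 and 15 with DESeq2, 4 and 1 with library weights and 2 with no filter. In males, 0 in edgeR, they were 3 and 16 with DESeq2, 1 and 1 with library weights, and 0 to 1 leaving out each library. The interaction, 0 in edgeR, had 4 and 4 with DESeq2, 1 with library weights, 1 with no filter and 0 to 1 leaving out each library. Sex, 7 in edgeR, had 12 and 15 with DESeq2. The median log2 fold change of the reactive genes, 0.05, was 0.22 without Mt3 and 0.44 without the metallothioneins, and 0.015 to 0.096 leaving out each library. Gfap per kilobase of its longest transcript was 54.5 CPM per kb in wild-type mice. The relation of Mt2 to the glucocorticoid-induced genes was -0.040 with group means removed. The relations of Gfap with Aqp4 and Vim and of Mt1 with Mt2 fell to 0.535, 0.512 and 0.448 with all 12 libraries and to 0.556, 0.616 and 0.779 with group means removed. Depth limits female mutant 3 most, where 3 counts are worth 1.16 CPM.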
